A study of Homo sapiens with 6 samples.

Results

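The immune checkpoint ligands CD274, PDCD1LG2, CD276, CD47, PVR, NECTIN2, LGALS9 and ULBP2, the ectoenzyme gene NT5E and the PD-L1 stabiliser gene CMTM6 were examined in OVCAR8 cells. These 10 genes were chosen by name, as the rows of the deposited gene table that carry these symbols, and all 10 were found among its 38637 genes. OVCAR8 is a human ovarian cancer cell line, labelled wild type, and polyA RNA was sequenced from cells kept for 72 h with the solvent DMSO (3 samples) or with 2 nM pladienolide B dissolved in it (3 samples). Pladienolide B binds the SF3b complex, which holds SF3B1 and recognises the branch point during splicing, and the comparison asks how blocking it changed these transcripts in a study that paired the compound with an antibody to PD-L1. The labels and methods do not say whether the 3 samples of a group came from separate cultures, so p-values measure only the spread between these samples. One cell line was used, and in bulk RNA fewer cells that express a gene and less of its RNA per cell cannot be told apart.

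Checkpoint ligands are surface proteins by which a tumour cell restrains the immune cells that touch it. PD-L1, the product of CD274, and PD-L2, the product of PDCD1LG2, bind the receptor PD-1 on T cells and dampen T cell receptor signalling, while CD47 binds SIRP alpha on macrophages and inhibits phagocytosis. PVR and NECTIN2 bind both the activating receptor DNAM-1 and inhibitory receptors such as TIGIT, and CD73, the product of NT5E, turns AMP into adenosine, which acts on receptors of T cells and myeloid cells. ULBP2 stands apart in this group because it is a ligand of the activating receptor NKG2D on NK cells and T cells. CMTM6 is a membrane protein that keeps PD-L1 at the cell surface and away from lysosomal degradation.

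CD274 lies on chromosome 9 of GRCh38 at chr9:5450542-5470554 on the plus strand, and its canonical GENCODE transcript has 7 exons and 3634 bases. Its transcription is classically driven by interferon gamma, so the letters at its start are shown. Beside them are those of LGALS9, the other member whose window holds an interferon-response pattern. Those of ULBP2 are added because, among the members with a window, only ULBP2 held an AP-1 pattern. Each sequence is the RefSeq window of GRCh38.p14 from 250 bases before to 50 bases after the gene's RefSeq start, read 5′ to 3′, and that start can differ from the one in the deposited table. Of the 10 members, 9 had a window in the reference used, and PDCD1LG2 did not. Capitals mark matches, on either strand, to the ISRE pattern GAAANNGAAA, the GAS pattern TTCNNNGAA and the AP-1 pattern TGANTCA, where N is any base.
CD274, chr9:5450292-5450591, plus strand: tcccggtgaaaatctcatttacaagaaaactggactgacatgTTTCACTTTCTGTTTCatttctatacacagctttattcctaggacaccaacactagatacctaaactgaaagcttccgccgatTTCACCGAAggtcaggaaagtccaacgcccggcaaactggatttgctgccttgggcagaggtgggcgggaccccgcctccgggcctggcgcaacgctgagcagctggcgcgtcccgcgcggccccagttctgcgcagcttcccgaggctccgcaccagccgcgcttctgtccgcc
LGALS9, chr17:27630938-27631237, plus strand: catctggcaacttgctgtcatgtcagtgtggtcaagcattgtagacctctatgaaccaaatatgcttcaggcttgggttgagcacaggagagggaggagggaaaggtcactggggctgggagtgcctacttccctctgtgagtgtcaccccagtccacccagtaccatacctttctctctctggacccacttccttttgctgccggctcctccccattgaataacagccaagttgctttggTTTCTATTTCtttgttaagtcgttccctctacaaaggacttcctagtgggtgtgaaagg
ULBP2, chr6:149941764-149942063, plus strand: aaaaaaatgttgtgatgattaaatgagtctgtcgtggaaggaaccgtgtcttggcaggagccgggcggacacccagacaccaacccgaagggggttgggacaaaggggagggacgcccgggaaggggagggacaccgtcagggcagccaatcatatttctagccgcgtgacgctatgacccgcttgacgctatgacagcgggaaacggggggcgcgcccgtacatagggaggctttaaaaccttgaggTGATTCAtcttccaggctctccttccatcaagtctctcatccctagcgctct
In the CD274 window, 2 matches to the ISRE pattern overlap each other, the first beginning 208 and the second 202 bases before the start, and 1 match to the GAS pattern begins 125 bases before it. The ISRE pattern was present in 3.57% of the 35116 windows of this length, and 2 of the 9 members with a window held it. The GAS pattern was found in 7.66% of all windows and the AP-1 pattern in 7.71%. The LGALS9 match to the ISRE pattern begins 9 bases before the start, and the ULBP2 match to the AP-1 pattern spans the start. The looser NF-kB pattern GGGNNNNNCC was present in 9 of 9 members but also in 58.7% of all windows, and is not marked. These matches describe letters only, and binding was not measured here.

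Pladienolide B was accompanied by higher transcript levels for most of these genes, and none was significantly lower. Among the 9 members with enough reads to be tested, 6 were significantly higher (NT5E, CD274, ULBP2, CMTM6, PVR and CD276), 0 were lower, and PDCD1LG2, CD47 and NECTIN2 did not pass the test. The background was broad, since limma on log2 values with Benjamini-Hochberg adjustment called 47.6% of the 16178 genes tested at an adjusted p below 0.05, 22.4% as higher and 25.2% as lower. The share of members called was 66.7%. The median log2 difference was 0.40 over the 9 tested members and -0.0042 over all genes tested. The 3 values of each group did not overlap for 8 of the 9, beside 55.3% of all genes tested.

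Values are given as adjusted reads, the deposited counts scaled by the authors to a common library size, and each difference is pladienolide B minus DMSO on the log2(adjusted reads + 1) scale, with its standard error (SE). The recovered libraries held 22621338 to 26130882 reads on genes. DMSO replicate 2 stood apart from the other DMSO samples, with a chi-square per degree of freedom of 7.42 and 7.31 against them and 2.01 between those, so results are given without it where it matters. All 10 ovarian carcinoma and epithelial markers passed the filter, with 3 higher and 2 lower and a sum of 80796 to 86686 adjusted reads in DMSO and 81243 to 96604 in pladienolide B. PAX8 (4108 adjusted reads in DMSO), KRT8, KRT18 and MSLN were abundant, whereas WT1 and MUC16 were near 20 adjusted reads. CDH1 and KRT19 were low as well, at 4.94 and 11.8 adjusted reads per kilobase of canonical transcript in DMSO. EPCAM was at 308 on that scale, and KRT7 was at 7709 in DMSO and 4994 in pladienolide B. Of 15 leukocyte markers, 4 were tested, CD68 and ITGAM differed in opposite directions, CD3E was at 0 in every sample, and PTPRC and CD3D reached at most 2.00 adjusted reads. The summed leukocyte markers ranged from 1225 to 1375 in DMSO and from 1615 to 1693 in pladienolide B, most of it from CD68, a lysosomal protein gene that many cell types express, and their part in the results was not tested.

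**Figure D1:**
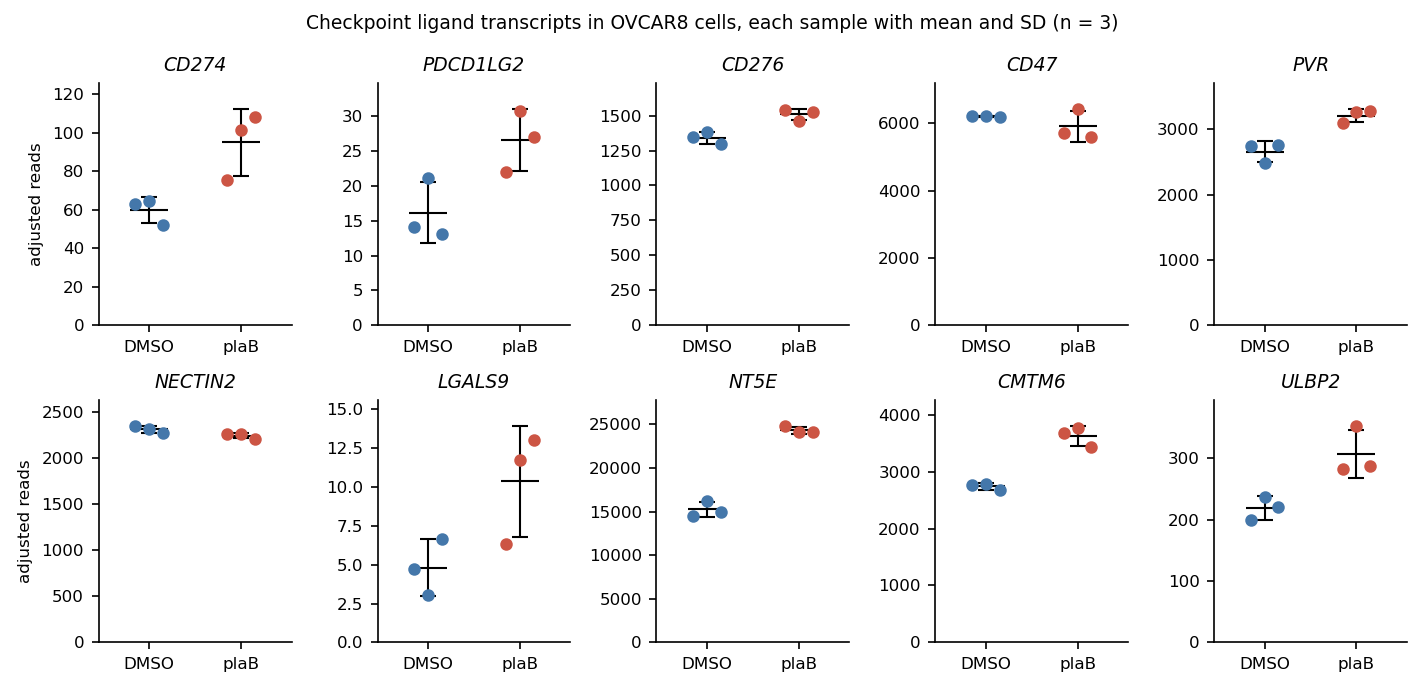
Adjusted reads of each of the 10 genes in the 3 DMSO samples (blue) and the 3 pladienolide B samples (plaB, red), each panel with its own linear axis from 0. Points are samples, and black lines are the mean and SD. The groups are separate for NT5E, CMTM6, PVR, CD276, ULBP2, CD274, PDCD1LG2 and, by a small margin and downward, NECTIN2, and they overlap for CD47 and LGALS9.

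CD274 was measured at 63.2, 64.5 and 51.8 adjusted reads in the DMSO samples and at 75.4, 101 and 108 in the pladienolide B samples. All treated samples were above all control samples, although the lowest treated sample was closer to the controls than to the other treated samples. The mean rose from 59.8 ± 6.98 to 94.9 ± 17.3 (SD, n = 3 each), a ratio of 1.59. The log2 difference was 0.65 (SE 0.18, 95% interval 0.26 to 1.03, limma adjusted p = 0.0077). These values rest on 55 to 67 reads per DMSO sample and 72 to 108 per pladienolide B sample, so the size of the change is known only roughly. Only 22.8% of the tested genes had a lower mean level than CD274, and 88.4% had a smaller difference in size.

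PDCD1LG2, which encodes the other PD-1 ligand and begins 39883 bases beyond the end of CD274 on the same strand (chr9:5510438-5571282), had 14.1, 21.1 and 13.2 adjusted reads in DMSO and 22.0, 30.8 and 27.1 in pladienolide B. The treated samples were again all higher, with the highest control just below the lowest treated sample. The log2 difference of 0.71 (SE 0.31, 95% interval 0.056 to 1.36) was as large as that of CD274 but did not pass the limma test (adjusted p = 0.069). It passed without DMSO replicate 2, at 0.91 (limma adjusted p = 0.034). Both genes had few reads, and 14 to 29 reads per sample stood behind PDCD1LG2.

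CD276 (chr15:73683966-73714518, plus strand) encodes B7-H3, a further B7 family protein that is often abundant on carcinoma cells. Its values were 1343, 1379.9 and 1294 adjusted reads in DMSO and 1538, 1464 and 1523 in pladienolide B, without overlap. The mean was 12.7% higher, a log2 difference of 0.17 (SE 0.051, limma adjusted p = 0.010). The call, though not the size of the difference, depended on 1 library, because without DMSO replicate 3 the difference was 0.15 with a limma adjusted p of 0.054.

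CMTM6 (chr3:32481312-32502852, minus strand), whose product protects PD-L1, rose more clearly. It had 2766, 2787 and 2669.9 adjusted reads in DMSO against 3669.6, 3771 and 3434 in pladienolide B, and every treated sample was far above the controls. The log2 difference was 0.40 (SE 0.046, limma adjusted p = 2.0e-06), from a mean of 2741 ± 62.5 to one of 3625 ± 173 (SD, n = 3 each). The transcripts of PD-L1 and of its stabiliser were both higher in the treated samples.

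NT5E (chr6:85450083-85495784, plus strand), the gene of the adenosine-producing enzyme CD73, was the most abundant member and had the smallest adjusted p of the 9. The DMSO samples had 14525, 16217 and 15006 adjusted reads and the pladienolide B samples 24786, 24127 and 24089. The mean rose 1.60-fold, from 15249 ± 872 to 24334 ± 392 (SD, n = 3 each), and the log2 difference was 0.68 (SE 0.044, 95% interval 0.58 to 0.77, limma adjusted p = 2.9e-09). The ratio was close to that of CD274, but at this depth its interval was far narrower. Among tested genes, 99.4% had a lower mean level than NT5E.

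Of PVR and NECTIN2, whose products share receptors, PVR passed the test and NECTIN2 did not. PVR (chr19:44643910-44666162, plus strand) had 2738, 2478 and 2765 adjusted reads in DMSO and 3090.4, 3263 and 3274 in pladienolide B, a log2 difference of 0.27 (SE 0.050, limma adjusted p = 0.00025). NECTIN2 (chr19:44846297-44889223, plus strand), which begins 180134 bases further on, had 2342, 2307 and 2274 in DMSO and 2258, 2253 and 2209 in pladienolide B. The NECTIN2 groups were separate by a narrow margin, but its log2 difference was only -0.04 (95% interval -0.14 to 0.05) and did not pass the limma test (adjusted p = 0.45). A test of the difference between the 2 genes was not run. The last 303 bases of PVR overlap CEACAM19 on the same strand, and the noncoding gene CEACAM16-AS1 spans it on the other strand. Whether reads were assigned by strand is not given in the sources used here, so reads of overlapping genes may be shared.

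CD47 (chr3:108043091-108094200, minus strand), the signal that inhibits phagocytosis, showed no detectable change. Its DMSO samples were nearly identical at 6209.6, 6220.4 and 6201 adjusted reads, and the pladienolide B samples lay on both sides of them at 5712, 6430.4 and 5591. The log2 difference was -0.07 (95% interval -0.18 to 0.03, limma adjusted p = 0.23). Without pladienolide B replicate 2, the sample that lay above the controls, the difference was -0.14 with a limma adjusted p of 0.023, so whether it is called rests on that library.

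ULBP2 (chr6:149941947-149949235, plus strand), the NKG2D ligand, had 199, 237 and 221 adjusted reads in DMSO and 283, 352 and 288 in pladienolide B. The groups were well separated, and the mean was 40.4% higher. The log2 difference was 0.48 (SE 0.11, limma adjusted p = 0.0015). The coding sequence of ULBP2 is 96.7% identical to that of RAET1L and 94.6% to that of RAET1G, so reads of these copies may have been misassigned or lost between them. LGALS9 (chr17:27631172-27649560, plus strand), which encodes galectin-9, a ligand of TIM-3, was too low to test, with 4.70, 3.03 and 6.66 adjusted reads in DMSO and 6.33, 11.7 and 13.0 in pladienolide B. The groups overlap, and with no filter on low values limma gave an adjusted p of 0.19. Its copies LGALS9B and LGALS9C, 96.3% and 95.9% identical in coding sequence, had at most 3.17 adjusted reads.

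**Figure D2:**
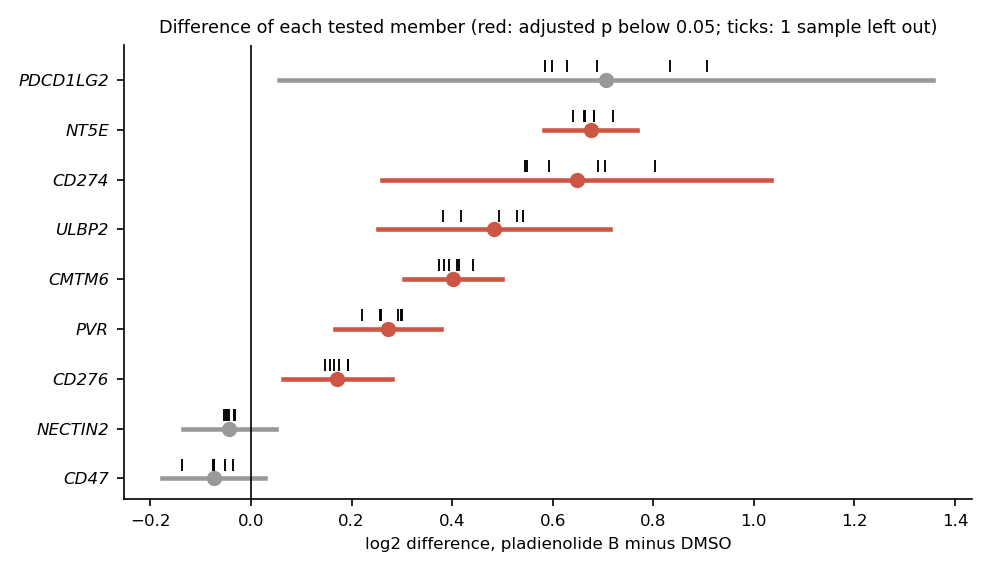
Log2 difference (horizontal axis, pladienolide B minus DMSO) of the 9 tested members, with points for the estimate, thick lines for the 95% interval and black ticks for the 6 estimates with 1 sample left out. Red marks an adjusted p below 0.05. The intervals of PDCD1LG2 and CD274 are the widest, that of NT5E lies from 0.58 to 0.77, and those of NECTIN2 and CD47 include 0.

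Levels between genes were compared as adjusted reads per kilobase of the canonical GENCODE transcript, a scale on which other isoforms are not taken into account. In DMSO the order was NT5E (4281 ± 245, SD, n = 3), CD47 (1174 ± 1.81), NECTIN2 (858 ± 12.7), CMTM6 (829 ± 18.9), PVR (459 ± 27.4), CD276 (406 ± 13.1), ULBP2 (164 ± 14.2), CD274 (16.5 ± 1.92), PDCD1LG2 (6.63 ± 1.80) and LGALS9 (2.78 ± 1.06). The ranges of neighbours in this order did not overlap, but those of NECTIN2 (845 to 871) and CMTM6 (807 to 843) were almost adjacent. The level of NT5E was thus 260-fold that of CD274 and the level of CMTM6 50.4-fold, while PDCD1LG2 was at 0.403 of CD274. In pladienolide B, CMTM6 (1096 ± 52.2) was above NECTIN2 (833 ± 10.2) without overlap, and its range now overlapped that of CD47 (1117 ± 85.8). CD274 remained low after its rise, at 26.1 ± 4.77 adjusted reads per kilobase.

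**Figure D3:**
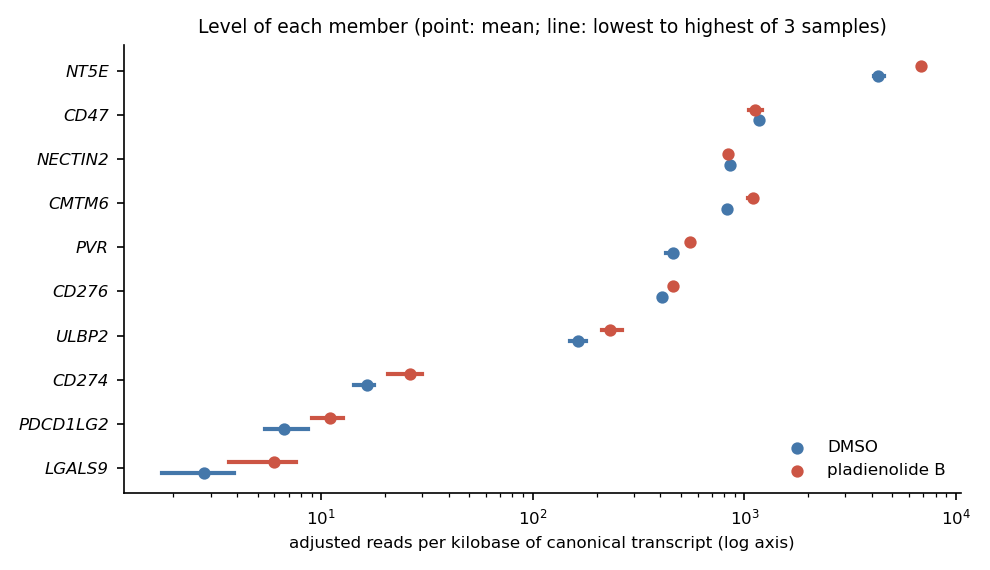
Adjusted reads per kilobase of canonical transcript (log axis) of the 10 genes, in order of their DMSO mean. Points are means and lines run from the lowest to the highest of 3 samples, for DMSO (blue) and pladienolide B (red). CD274, at 16.5 in DMSO and 26.1 in pladienolide B, lies far below NT5E at 4281 and 6832.

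The other ligands of these families moved in both directions. A list of 23 further genes held mainly B7, butyrophilin and TNF family ligands, with CD40, CD58 and CD48 beside them. Of these, 14 were tested, 2 were higher and 4 lower, with a median log2 difference of -0.03. The share called was 42.9%, beside 47.6% of all genes tested. Without pladienolide B replicate 3, 4 were higher and 4 lower. VSIR, which encodes the inhibitory B7 protein VISTA, fell from 606 ± 29.7 to 423 ± 18.9 adjusted reads (SD, n = 3 each), a log2 difference of -0.52 (limma adjusted p = 2.1e-05). The butyrophilin gene BTN3A2, whose family presents phosphoantigen signals to gamma delta T cells, fell by 0.71 on the log2 scale, while BTN2A1, a partner in that recognition, rose by 0.33. BTNL9, a butyrophilin-like gene, fell by 0.53. CD80, whose product can bind PD-L1 on the same cell as well as CD28 and CTLA-4 on T cells, was at 0 in every sample.

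A list of 21 further genes held mainly nectins, galectins, CEACAMs and other ligands of inhibitory receptors, with the enzyme genes IDO1 and TDO2. Of these, 12 were tested, 4 were higher and 5 lower, with a median of -0.18. The share called was 75%, beside 47.6% of all genes tested (22.4% higher and 25.2% lower), and the difference between these shares was not tested. LGALS3, the gene of galectin-3, a ligand of LAG-3, fell from 1379.5 ± 76.3 to 888 ± 51.7 adjusted reads (SD, n = 3 each), and CD24, the gene of a SIGLEC-10 ligand that inhibits phagocytosis, fell by 0.47 on the log2 scale. CEACAM1, whose product binds TIM-3 and other CEACAMs, rose by 1.46 on that scale but from a low level, with 5.55, 12.1 and 9.46 adjusted reads in DMSO and 23.0, 29.8 and 24.1 in pladienolide B. CEACAM1 passed the filter only through its pladienolide B samples, so the filter favoured a call as higher. With at least 10 adjusted reads required in every sample, 10 genes of the list were tested and 3 were higher. HLA-E, whose product binds the inhibitory receptor NKG2A, rose by 0.21.

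Most of the other NKG2D ligands were higher, as ULBP2 was. All 7 were tested, 5 were higher and 0 lower, beside 22.4% and 25.2% of all genes tested, and the median log2 difference was 0.56. MICB, an MHC class I-like stress ligand, rose from 1966 ± 35.4 to 2679 ± 52.7 adjusted reads (SD, n = 3 each) and ULBP3 from 474 ± 18.4 to 699.8 ± 58.0, log2 differences of 0.45 and 0.56 (limma adjusted p = 4.1e-07 and 1.1e-05). The other 3 calls were on RAET1E, RAET1G and RAET1L, ULBP family genes with means of 12.8 to 55.7 adjusted reads in DMSO, and the RAET1L groups overlap. MICA had 668 ± 52.1 and 673 ± 26.0 adjusted reads (SD, n = 3 each; log2 difference 0.01, limma adjusted p = 0.89). The count of 5 higher rested on single libraries, because it was 3 without DMSO replicate 1, without DMSO replicate 3 or without pladienolide B replicate 1, and 2 without pladienolide B replicate 2. Without DMSO replicate 2, the control sample that stood apart, 2 were higher and 1 was lower. With no filter on low values 2 were higher.

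A list of 26 genes held partners of PD-L1 and genes of its turnover, with the CMTM6 relatives CMTM3, CMTM7 and CMTM8. All were tested, 6 were higher and 4 lower, with a median of 0.04. The share called was 38.5%, beside 47.6% of all genes tested (22.4% higher and 25.2% lower), and the difference was not tested. Without the variance trend 7 were called, 4 of them higher, and with upper-quartile scaling 11 were called, 8 of them higher. CMTM7 and CMTM8, relatives of CMTM6, rose by 0.75 and 0.65 on the log2 scale, CMTM7 from 300 ± 17.5 to 506 ± 30.7 adjusted reads (SD, n = 3 each). CMTM4, which like CMTM6 stabilises PD-L1, had 2042 ± 59.6 and 2016 ± 34.4 and did not pass the test (limma adjusted p = 0.78). STUB1, a ubiquitin ligase that promotes PD-L1 degradation, fell from 2435 ± 157 to 1661 ± 64.9 (SD, n = 3 each), and KAT2B, an acetyltransferase gene, fell by 0.56. ZDHHC3, a palmitoyltransferase that stabilises PD-L1, rose by 0.29.

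Known regulators of the CD274 transcript moved in both directions, with 11 higher and 7 lower out of 34, all tested, and a median of 0.05. Without pladienolide B replicate 1 or replicate 2, 7 were higher and 7 lower, and without the variance trend 5 were higher and 7 lower. Of all genes tested, 22.4% were higher and 25.2% lower. JAK2, a kinase of the interferon gamma receptor, fell from 384 ± 31.0 to 269 ± 6.47 adjusted reads (SD, n = 3 each; log2 difference -0.51, limma adjusted p = 0.00018). IRF1, a transcription factor gene induced by interferon gamma, had 535 ± 10.5 and 601 ± 82.9 (SD, n = 3 each) and did not pass the limma test (adjusted p = 0.15). FOS, an AP-1 subunit, had 401, 372 and 447 adjusted reads in DMSO and 55.6, 85.3 and 100.2 in pladienolide B, the largest difference of the list at -2.36. HIF1A, the hypoxia factor that can bind the CD274 promoter, rose by 0.82, although DMSO replicate 2 (5462 adjusted reads) stood above the other DMSO samples (3770.2 and 3499). ZFP36, which encodes the RNA-binding protein tristetraprolin that destabilises CD274 mRNA, rose by 0.70.

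Around CD47, the ligand itself did not pass the test while 5 of 10 genes of its axis were lower and 1 higher, beside 25.2% and 22.4% of all genes tested. The split was 4 lower and 3 higher without DMSO replicate 2 and with upper-quartile scaling, and 4 lower and 2 higher without pladienolide B replicate 3. QPCTL, whose enzyme forms the pyroglutamate that SIRP alpha recognises on CD47, fell from 319 ± 12.6 to 186 ± 28.2 adjusted reads (SD, n = 3 each; log2 difference -0.79, limma adjusted p = 2.8e-05). SIRPA, the receptor gene, rose from 532 ± 26.8 to 883 ± 32.7 in these tumour cells, a log2 difference of 0.73 (limma adjusted p = 1.3e-07). ITGAV, an integrin subunit gene, LRP1, the gene of the receptor for the phagocytic signal calreticulin, and THBS2, a thrombospondin gene, fell by 0.82, 0.67 and 0.66 on the log2 scale. CALR, the calreticulin gene, did not pass (limma adjusted p = 0.36), and THBS1, a thrombospondin that binds CD47, fell by 0.20 with overlapping groups.

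In the adenosine pathway around NT5E, 12 of 16 genes were tested, 2 were higher and 2 lower, with a median of 0.04. The share called was 33.3%, beside 47.6% of all genes tested, and the difference between these shares was not tested. ENTPD1, the gene of CD39, which supplies the AMP that CD73 uses, had 799.8 ± 29.5 and 736 ± 19.7 adjusted reads (SD, n = 3 each) and did not pass the limma test (adjusted p = 0.12). ADORA2B, an adenosine receptor gene, had 878 ± 34.5 and 975 ± 71.4 and did not pass it either (limma adjusted p = 0.065). ENTPD5, a nucleotidase of the endoplasmic reticulum, fell by 0.56 on the log2 scale. Without DMSO replicate 3 or without pladienolide B replicate 1, 0 were higher and 2 lower, and without DMSO replicate 1 or without pladienolide B replicate 2, 1 was higher and 2 lower.

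**Figure D4:**
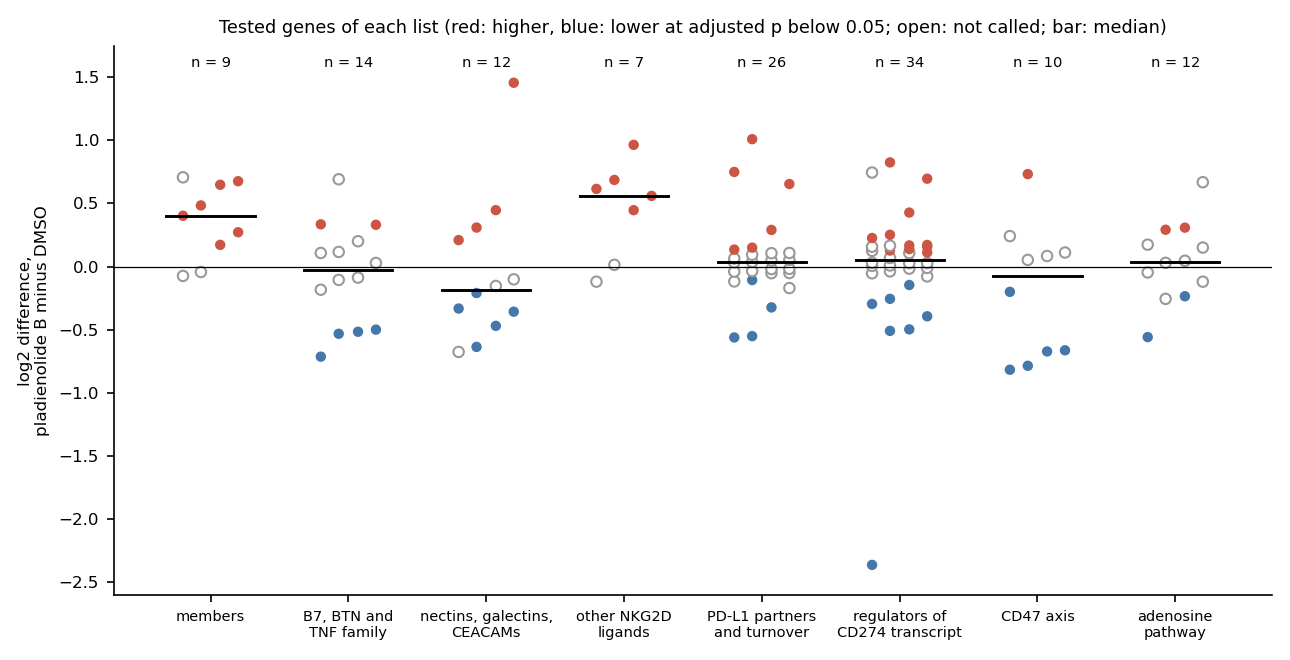
Log2 difference (vertical axis, pladienolide B minus DMSO) of the tested members and of the tested genes of 7 lists, with n above each column. Red points were higher and blue points lower at an adjusted p below 0.05, open points were not called, and bars are medians. The medians of the members (0.40) and of the other NKG2D ligands (0.56) lie above 0, and that of the nectins, galectins and CEACAMs (-0.18) below it.

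Genes next to the members were compared within 250000 bases on each side. Over the whole genome, 22.4% of genes tested were higher and 25.2% lower. Beside CD274, 3 genes were tested and 0 were called by limma, so the called change at this locus was in CD274 alone, with the wide interval of PDCD1LG2 described above. Beside CMTM6, all 4 tested genes were higher, namely CMTM7, CMTM8, the dynein light intermediate chain gene DYNC1LI1 (log2 difference 0.17) and CNOT10, a gene of the CCR4-NOT complex that shortens poly(A) tails (0.24). Beside ULBP2, 7 of 12 tested genes were higher and 0 lower. They were RAET1E, RAET1G, RAET1L, ULBP3, the pseudogene RAET1K, the Hippo pathway kinase gene LATS1 and the protein repair enzyme gene PCMT1. RAET1E, RAET1G, RAET1L and ULBP3 are also among the other NKG2D ligands above, whose count of higher genes rested on single libraries. Reads may also have been misassigned between ULBP2, RAET1L and RAET1G, as described above. RAET1E and RAET1G overlap the antisense gene RAET1E-AS1, so reads may be shared there too. ULBP1, which lies between ULBP2 and RAET1K, had a log2 difference of -0.12 (limma adjusted p = 0.54). Its values were 473, 289 and 516 adjusted reads in DMSO and 404, 360 and 378 in pladienolide B. DMSO replicate 2 was the lowest of all, and the remaining DMSO samples lay above every pladienolide B sample. Beside NT5E, 6 genes were tested, of which 1 was higher and 2 lower, and its neighbour SNX14, a sorting nexin gene, fell by 0.23. The higher one was the snoRNA gene SNORD50B, which lies within SNHG5, a gene called as lower. SNORD50B had 8.39, 13.1 and 12.3 adjusted reads in DMSO and 22.9, 21.4 and 24.05 in pladienolide B. Its DMSO samples alone would not have met the filter, so the filter favoured a call as higher. The neighbours of the other members were divided, with 4 higher and 2 lower of 14 tested beside NECTIN2, 2 higher and 2 lower of 10 beside PVR, 0 higher and 2 lower of 4 beside CD276, 0 higher and 1 lower of 3 beside CD47, and 1 higher and 0 lower of 3 beside LGALS9. No difference between these counts and the shares over all genes was tested.

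**Figure D5:**
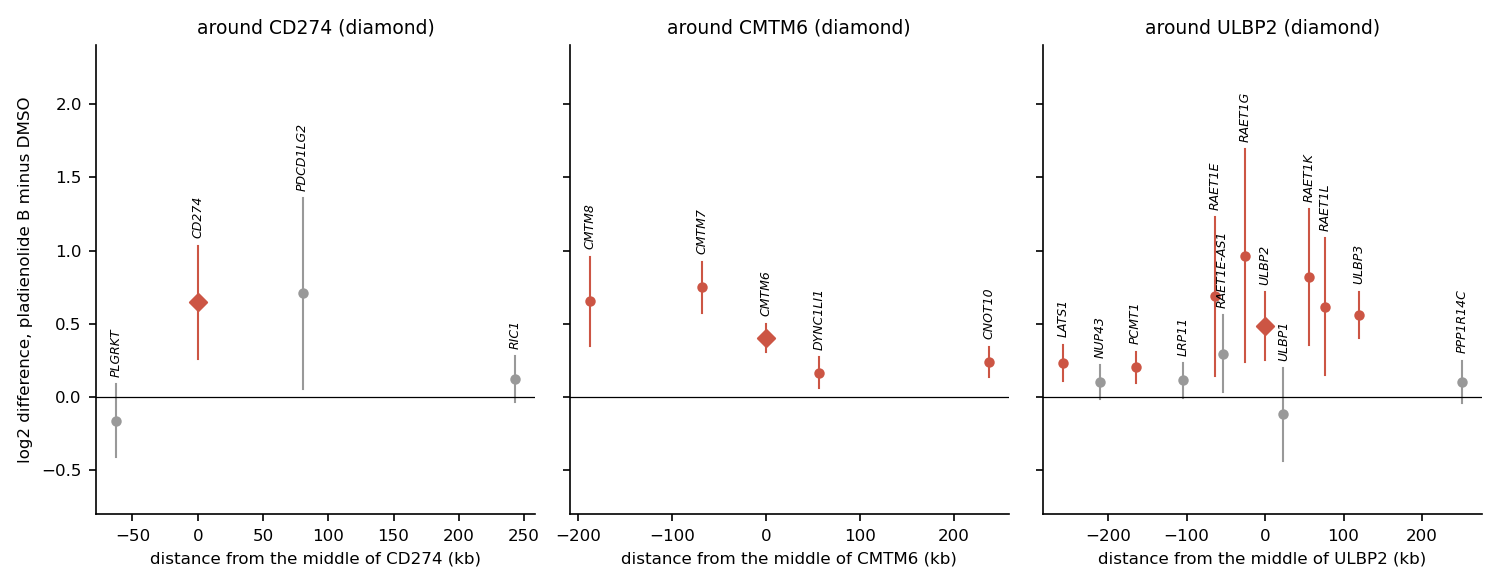
Log2 difference (vertical axis, with 95% intervals as lines) of tested genes against the distance of their middle from that of CD274, CMTM6 or ULBP2 in kb. Red was higher at an adjusted p below 0.05, grey was not called, and the diamond is the member. All neighbours of CMTM6 are red, those of ULBP2 are red or grey, and the 3 neighbours of CD274 are grey.

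The genes whose pattern over the 6 samples was most like that of CD274 were MT1M, PSORS1C1, THNSL2, GASAL1 and TRIM2, among 13210 tested genes with a mean of at least 50 adjusted reads. Their Euclidean distances from CD274, on centred log2 values, were 0.13, 0.17, 0.22, 0.23 and 0.24. All have means near that of CD274, from 52.1 to 92.9 adjusted reads in DMSO. MT1M, a metallothionein gene, had 92.3, 98.8 and 79.2 adjusted reads in DMSO and 113, 151 and 148 in pladienolide B. DMSO replicate 3 and pladienolide B replicate 1 were the lowest of their groups, as for CD274. Such likeness follows from how these genes were picked and is not a separate result.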

How the data were processed

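PolyA RNA of OVCAR8 cells, 3 DMSO and 3 pladienolide B samples, was sequenced. The submitters' processing notes name hg19, HISAT2, HTSeq 0.12.4 and DESeq2, whereas the paper's methods give hg38. Positions in the table overlap GRCh38.p14 RefSeq for 35868 of 35926 shared symbols (99.8%), so GRCh38 is used. The authors deposited 1 adjusted value per gene and sample, a signal scaled to a common library size, which edgeR's quantile adjustment of counts returned. Inverting the adjustment gave whole reads (tolerance 0.02) for 100% of 96432 values of 10 or more. The edgeR quasi-likelihood test on them called 7738 genes. The authors' deposited log2 fold changes, p-values and q-values were not used.

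limma 3.58.1 with a variance trend was run, two-sided, on log2(value + 1) for genes kept by filterByExpr of edgeR 4.0.16 (10 adjusted reads in 3 samples, 15 in total). The pseudocount of 1 understates changes of low genes. All genes were adjusted together, and a call is an adjusted p below 0.05. Alternatives were other filters, pseudocounts and scalings, no variance trend, edgeR, DESeq2 1.42.0, a replicate block and leaving out each sample. Exons and coding sequence came from GENCODE, and identity from Biopython 1.88 alignments. The fits were tested on simulated data. Members and lists were chosen with earlier results of these data known. Beyond members, genes named are called list genes with a log2 difference of at least 0.5 in size (at most 5 per list), up to 2 more for their role, the 5 most like CD274, and marker genes, overlapping genes and neighbours, the last named after their values were seen. Some genes of the lists that meet this rule are counted but not reported here by name.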

Additional observations from a re-analysis of the deposited data

How the results depend on the processing

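Of 144 values of the 9 tested members under 16 alternatives, 139 kept their direction and their side of the threshold, 1 lost its call, 4 gained one and 0 reversed. CD274 was called in every one, with log2 differences of 0.55 to 0.80 and a highest adjusted p of 0.048, without pladienolide B replicate 3. PDCD1LG2 was called in 3 of them: without DMSO replicate 2, with at least 10 adjusted reads in every sample (adjusted p = 0.0496) and in limma without the variance trend (0.043). The count of members called ranged from 5 to 7, and that of all genes from 6381 to 7836. The count of other NKG2D ligands was 2 with no filter on low values and 2 to 5 with 1 sample left out, and the adenosine count was 2 to 4 with 1 sample left out. Among receptors on immune cells the count was 0 with at least 10 adjusted reads in every sample, 0 by DESeq2 and 0 to 1 with 1 sample left out. The cause of these moves was not tested.

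No shared shift of same-numbered samples was detected (correlations of same-numbered deviations of -0.02, -0.02 and 0.0026). These correlations cannot show whether such samples were prepared together. With a replicate block, 7349 genes were called, and no call on a member changed. Depth limits CD274, PDCD1LG2 and LGALS9, which had at most 108 reads in a sample.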

Other observations

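The receptors that these ligands meet on immune cells were mostly at the edge of detection. Of 15 receptor genes, 3 were tested, with 0 higher and 1 lower in limma. LAG3, a T cell receptor gene for inhibitory ligands, had 11.2, 18.1 and 14.2 adjusted reads in DMSO and 4.20, 7.43 and 6.01 in pladienolide B, a log2 difference of -1.18 (limma adjusted p = 0.031) that was lost without DMSO replicate 2, without DMSO replicate 3 or without pladienolide B replicate 1, with no filter on low values and by DESeq2. LAG3 passed the filter only through its DMSO samples, so the filter favoured a call as lower. With the filter's minimum required in every sample, LAG3 was not tested. 1 other receptor gene was called as higher without pladienolide B replicate 1, and 1 with no filter on low values. TIGIT, the receptor of PVR and NECTIN2, ranged from 151 to 180 adjusted reads in the control samples and from 170 to 221 in the treated ones, and did not pass the limma test (adjusted p = 0.075). PDCD1, the gene of PD-1, had at most 3.82 adjusted reads in any sample and was not tested.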
